A study of Mus musculus with 19 samples.

Results

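Mouse mitochondria carry their own circular genome, and the genes on it were taken here as every row of the deposited tables whose symbol begins with mt-. This rule gave 37 of 54352 gene symbols: 13 messenger RNAs (mRNAs), 2 ribosomal RNAs (rRNAs) and 22 transfer RNAs (tRNAs). All 37 were read in each of 19 RNA-seq libraries, and the mRNAs and rRNAs are given apart. The cells were TT2 mouse embryonic stem cells, a single line with no genetic change named in the labels, grown over inactivated mouse embryonic fibroblast feeders. In flat (2D) culture, 2 control libraries with no treatment and 2 libraries treated with 20 nM pladienolide B (PlaB, an inhibitor of the spliceosome) for 6 h were taken 54 h after seeding. The other 15 libraries came from blastoids, stem cell aggregates that resemble the early embryo before implantation, with 3 libraries on each of days 1, 2, 3, 4 and 5. The blastoid labels also list PlaB for 6 h, and no blastoid library without PlaB was analysed here. Libraries were made by the Smart-seq2 method, which copies RNA with a poly(A) tail and amplifies it by PCR.

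The mitochondrial genome is read from both of its strands into long transcripts that hold many genes. The tRNAs lie between most of the mRNAs and rRNAs, and cutting them out frees the mature RNAs, most of which then receive a short poly(A) tail. The mRNAs encode core subunits of the respiratory chain and of ATP synthase, which work only together with subunits encoded in the nucleus, and none of the mitochondrial genes has an intron.

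The sequences show first what the counts of each gene can hold. The annotation used for all positions was GENCODE M21 on GRCm38, and 12 of the 13 mRNAs lie on the plus strand, with mt-Nd6 alone on the minus strand. A stretch of chromosome 1 (chr1:24611535-24616197, minus strand) holds 7 annotated pseudogenes that are copies of mitochondrial genes. Aligned over 681 bases, mt-Co2 and Gm28661 were identical. The same held for mt-Atp6 and Gm10925 over 678 bases, mt-Co3 and Gm28437 over 783, mt-Nd4l and Gm10222 over 294, and the first 876 bases of mt-Nd4 and Gm28439. Over 345 bases mt-Nd3 and Gm28438 differed by the substitution T3C, counted from 1 at the first base of mt-Nd3, which is in capitals in the first 60 bases of both.
mt-Nd3: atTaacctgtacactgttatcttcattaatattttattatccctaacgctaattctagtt
Gm28438: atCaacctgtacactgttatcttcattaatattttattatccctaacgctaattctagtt

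A read from inside such a gene therefore matches both places letter for letter. The last 30 bases of 3 genes are shown with the bases past the end of the annotated copy in capitals. The capitals mark where the pseudogene models stop, and nuclear sequence past that point was not searched. For mt-Nd4l the last 7 bases are also the first of mt-Nd4, which Gm28439 copies there without a difference.
mt-Co2: ttcgaaaactgatctgcttcaataattTAA
mt-Atp6: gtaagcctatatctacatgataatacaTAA
mt-Nd4l: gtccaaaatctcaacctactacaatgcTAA

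The genes fell into groups by how much of their sequence lay outside the annotated copies. No 50-base window of mt-Co2 was without an exact copy in an annotated nuclear transcript, and the share of such windows was 0.136% in mt-Co3, 0.475% in mt-Atp6, 1.21% in mt-Nd4l and 2.01% in mt-Nd3. It was 37.8% in mt-Nd4 and 48.9% in mt-Co1, 91.8% in mt-Nd2 and 92.4% in mt-Nd5. It was 100% in mt-Nd1, mt-Cytb, mt-Nd6, mt-Atp8 and both rRNAs. Levels per kilobase of gene, as CPM (counts scaled to a library total of 1000000) per kb averaged over 19 libraries, were 10990 for mt-Co1, 10360 for mt-Nd1 and 9053 for mt-Cytb. The mRNAs mt-Nd4 (2963 CPM per kb), mt-Nd2 (2344), mt-Nd5 (1520) and mt-Nd6 (498) followed. All 5 genes with under 3% of windows without an annotated copy were lower, at 128 for mt-Co3, 116 for mt-Co2, 27.6 for mt-Atp6, 8.07 for mt-Nd3 and 0.148 for mt-Nd4l. Over all libraries mt-Nd3 had 284 counts and its copy Gm28438 had 17212, and mt-Atp6 had 1824 against 4695 for Gm10925. The copies of mt-Co3 and mt-Co2 had 3741 and 3361 counts against 9771 and 7414 for the mitochondrial genes. How reads that match more than 1 place were counted is not given in the sources used here. The levels of these 5 genes therefore cannot be compared with those of the other mRNAs. Their fold changes may rest on only a part of their reads. The mRNA mt-Atp8 was also low, at 2.71 CPM per kb, although no annotated nuclear transcript matched it over 50 bases or more. It shares 43 bases with the start of mt-Atp6, which Gm10925 copies. On chromosome 1, 233 bases lie between Gm28661 and Gm10925, where the mitochondrial genome has 230 between mt-Co2 and mt-Atp6. That nuclear stretch has no gene model among the copies and was not searched, so a copy of mt-Atp8 there was not tested.

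**Figure D1:**
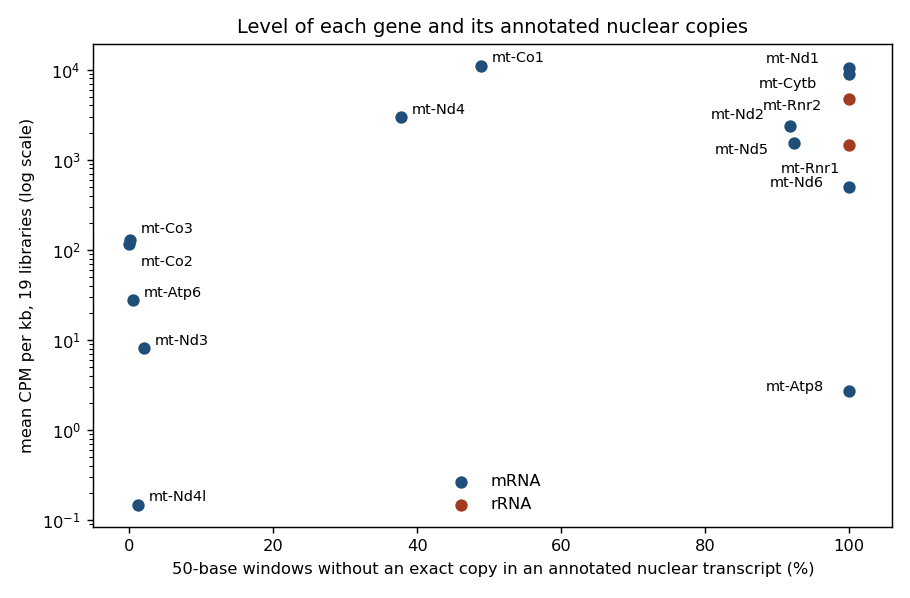
Mean level of the 13 mRNAs and 2 rRNAs over 19 libraries (CPM per kb of gene, log axis) against the share of 50-base windows with no exact copy in an annotated nuclear transcript. The 5 genes under 3% lie between 0.148 and 128 CPM per kb, and mt-Atp8 at 100% lies at 2.71.

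The poly(A) tail also completes some of these messages. The lengths of 3 mRNAs are no multiple of 3, and each ends in a lone T after its last full codon, in capitals in the last 30 bases. As background, the tail supplies the remaining bases of the stop codon.
mt-Co3: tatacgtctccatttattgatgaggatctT
mt-Nd4: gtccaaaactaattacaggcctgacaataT
mt-Cytb: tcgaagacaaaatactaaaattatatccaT

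The tRNAs were nearly absent from these libraries. No count was found for 16 of 22 tRNAs in any library, which over 104517814 counts in all allows a level of up to 0.0287 CPM by a limit of 3 counts. A further 5 had between 1 and 10 counts in all libraries together, and mt-Tp, the tRNA for proline, held 99.5% of the 2643 tRNA counts. It had 57 to 201 counts in every library, lies at chrM:15356-15422 on the minus strand and is shown whole because it is the sole tRNA that could be tested.
mt-Tp: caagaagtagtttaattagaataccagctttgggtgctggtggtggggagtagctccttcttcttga

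Library totals were 2515381 to 4118725 counts in 2D culture and 3684787 to 7607021 in blastoids, and the 13 mRNAs had at least 94613 counts together in each library. The 95% Wilson intervals of the shares below cover counting error only, since PCR copies are not independent molecules. With this depth they spanned at most 0.0620 percentage points for mRNAs, so the spread between libraries sets the precision. Stem cell markers (8 genes, among them Pou5f1 and Nanog) summed to 14025 to 22099 CPM in 2D culture and to 4199 to 17925 CPM in blastoids. Feeder fibroblast markers (18 genes) summed to 4703 to 8364 CPM in 2D culture, with none at 0, and to 231 to 1090 CPM in blastoids, with 1 to 3 at 0. In bulk samples fewer cells of a type and less RNA per cell cannot be told apart, and here that also holds for the number of mitochondria per cell.

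As a share of all counts, mitochondrial mRNAs were higher with PlaB than in control cells, and one blastoid library stood far above the rest. The 13 mRNAs held 4.10 and 4.32% of counts in control libraries and 6.44 and 7.16% with PlaB. Day 1 blastoids, in replicate order, held 2.31, 2.57 and 4.25%, those of day 2 5.37, 4.09 and 3.59% and those of day 3 4.92, 3.99 and 12.1%. The shares of day 4 were 3.99, 5.70 and 3.87%, followed by 3.92, 3.04 and 3.61% for day 5. The control and PlaB libraries did not overlap, whereas days 1, 2, 4 and 5 overlapped one another. Day 3 replicate 3, at 12.1%, was more than any other library, and without it the blastoid libraries ran from 2.31% to 5.70%.

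The rRNAs, the structural RNAs of the mitochondrial ribosome, separated the cultures more than the mRNAs did. They held 1.64 and 1.85% of counts in control libraries, 2.69 and 2.21% with PlaB and 0.161% to 1.41% in blastoids. All 4 libraries of 2D culture lay above all 15 blastoid libraries, the highest of which was again day 3 replicate 3. There were 2.33 to 3.24 mRNA counts per rRNA count in 2D culture and 5.56 to 24.0 in blastoids, again without overlap. The largest value came from day 4 replicate 3. The larger rRNA, mt-Rnr2, had 4.04 to 4.97 counts per count of mt-Rnr1 in 2D culture and 3.48 to 11.1 in blastoids, so these ratios overlapped. The table, the culture and the processing of 2D and blastoid libraries cannot be told apart.

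**Figure D2:**
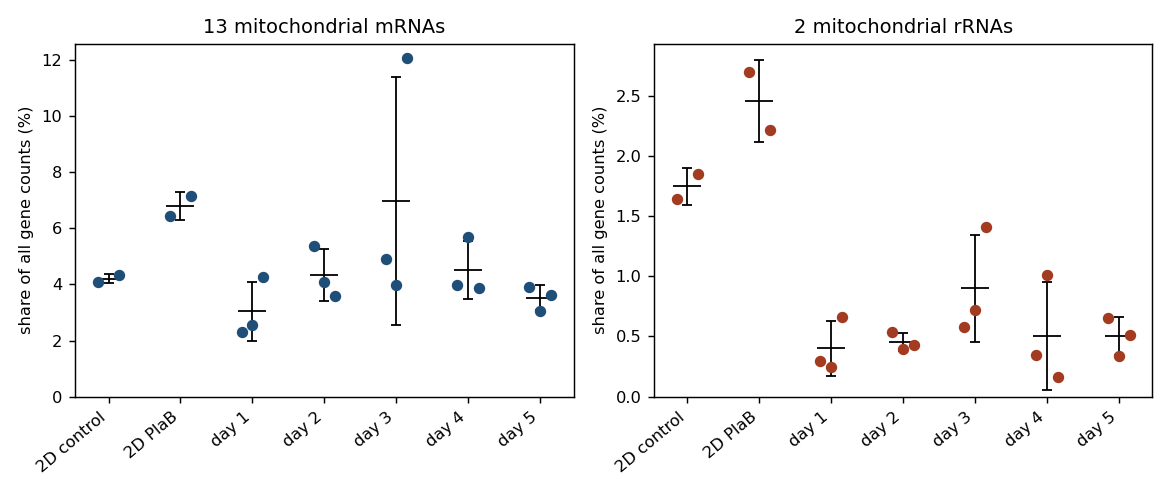
Share of all gene counts (%) from the 13 mitochondrial mRNAs (left) and 2 rRNAs (right), with each library as a point and the mean ± SD of each group as a bar. For rRNAs the 4 libraries of 2D culture (1.64% to 2.69%) lie above all blastoid libraries, and in both panels day 3 replicate 3 is the highest blastoid library.

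Set against the nuclear-encoded part of the respiratory chain, the mRNAs were also higher with PlaB. There were 1.62 and 1.74 mitochondrial mRNA counts for each count of the 74 nuclear-encoded respiratory chain genes listed in control libraries and 2.37 and 2.64 with PlaB. Day 1 blastoids had 0.935, 0.963 and 1.83, and those of day 5 had 1.501, 0.894 and 1.30. Day 3 replicate 3 stood at 6.10, with the lowest nuclear-encoded share of any library (1.98% of counts), while the other 14 blastoid libraries reached 2.24 at most. These ratios are a description with no test.

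The first comparison asked how 6 h of PlaB changed mitochondrial transcripts in 2D culture. After normalisation between libraries by the trimmed mean of M values (TMM), each gene was tested with edgeR's quasi-likelihood test and Benjamini-Hochberg adjusted p-values over 11183 genes. All 10 mitochondrial mRNAs that passed the filter on low counts rose, none fell, and the control and PlaB libraries overlapped for none of them. Overlap was not counted over all genes. CPM is relative to the other counts of a library and gives no amount of RNA per cell. Of all genes tested 51.7% passed, with 25.9% higher and 25.8% lower. The median log2 fold change was 0.99 over these mRNAs and 0.00142 over all genes. The other 3 mRNAs (mt-Nd3, mt-Nd4l and mt-Atp8) had too few counts for the test.

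Among the subunits of complex I, which takes electrons from NADH, the largest rises were those of mt-Nd6 and mt-Nd5. The level of mt-Nd6 was 156 and 177 CPM in control libraries and 419.5 and 482 with PlaB (log2 fold change 1.44 ± 0.14 (SE), adjusted p = 4.47e-11). For mt-Nd5 the levels were 2032 and 2076 CPM against 5363 and 5209 (log2 fold change 1.36 ± 0.12 (SE), adjusted p = 6.17e-12). For both genes the PlaB libraries lay far above both control libraries. These neighbours lie on opposite strands and share 14 bases, and the libraries do not mark strand by this method. Reads anywhere over mt-Nd6 may therefore also come from plus-strand RNA that runs across it, and their share was not tested. The remaining complex I mRNAs rose less, with log2 fold changes of 0.94 ± 0.12 (SE) for mt-Nd4, 0.66 ± 0.12 for mt-Nd2 and 0.41 ± 0.12 for mt-Nd1. The rise of mt-Nd1, from 7933 and 7442 CPM to 9805 and 10651, was the smallest of the mRNAs (adjusted p = 0.00325) and did not pass without control replicate 2 (adjusted p = 0.0716).

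The mRNA of cytochrome b, the mitochondrial subunit of complex III, rose as well. Levels of mt-Cytb were 6569 and 7515 CPM in control libraries and 13966 and 14926 with PlaB (log2 fold change 1.04 ± 0.12 (SE), adjusted p = 3.47e-09). Of the complex IV subunits, which pass electrons to oxygen, mt-Co1 was the most abundant, at 18256 and 19000 CPM against 26449 and 30153 (log2 fold change 0.60 ± 0.12 (SE), adjusted p = 4.48e-05). The groups were again apart, by a smaller step than for mt-Cytb. Log2 fold changes were 0.81 ± 0.16 (SE) for mt-Co2 and 1.10 ± 0.28 for mt-Co3. The latter passed edgeR (adjusted p = 0.0114) but not DESeq2 (adjusted p = 0.0521). The ATP synthase subunit mt-Atp6, low in every library, went from 15.1 and 16.8 CPM to 27.99 and 43.2 (log2 fold change 1.16 ± 0.27 (SE), adjusted p = 3.90e-04). The chromosome 1 copies of these low genes gave log2 fold changes of 0.94 ± 0.21 for Gm10925 (mt-Atp6), 0.70 ± 0.21 for Gm28437 (mt-Co3) and 0.48 ± 0.24 for Gm28661 (mt-Co2), the last not past the threshold (adjusted p = 0.0887).

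Both rRNAs rose too, by less than most of the mRNAs. Levels of mt-Rnr1 were 3042 and 3036 CPM in control libraries and 5297 and 4443 with PlaB (log2 fold change 0.68 ± 0.12 (SE), adjusted p = 1.20e-05), and those of mt-Rnr2 were 13172 and 15091 against 22192 and 17964 (log2 fold change 0.51 ± 0.12 (SE), adjusted p = 6.91e-04). Without control replicate 1, mt-Rnr2 did not pass (adjusted p = 0.0539). The tRNA mt-Tp, at 45.4 and 50.3 CPM against 61.7 and 52.0, did not pass (log2 fold change 0.25 ± 0.19 (SE), adjusted p = 0.291). The differences in fold change between members were not tested.

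Base composition and markers of several cell types moved with the treatment. The mitochondrial mRNAs hold 31.9% to 41.1% G and C, below the lower quartile of the nuclear genes compared (43.7%). GC-rich minus GC-poor nuclear genes stood at -1.25 and -1.02 on the log2 scale in control libraries and at 0.38 and 0.26 with PlaB. With the trend of each library with GC content removed, all 10 mRNAs still passed and their fold changes were larger, at 1.14 for mt-Co1 and 1.94 for mt-Nd5 on the log2 scale. In that fit mt-Tp passed too (log2 fold change 0.55, adjusted p = 0.0168). Feeder markers summed to 4703 and 5334 CPM in control libraries and to 6392 and 8364 with PlaB, and 13 of 17 tested rose while none fell, or 10 higher and 2 lower with the GC trend removed. Stem cell markers summed to 22099 and 20057 CPM in control libraries and to 14025 and 14207 with PlaB. Of 8 tested, 1 was higher and 4 were lower, or 2 and 5 with the GC trend removed. Trophectoderm markers, for the outer layer of the early embryo, summed to 63.4 and 86.7 CPM against 162 and 144. Of 4 tested, 2 were higher and 1 was lower, or 1 and 2 with the GC trend removed. The part of these cell types in the rise of mitochondrial RNA was not tested.

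**Figure D3:**
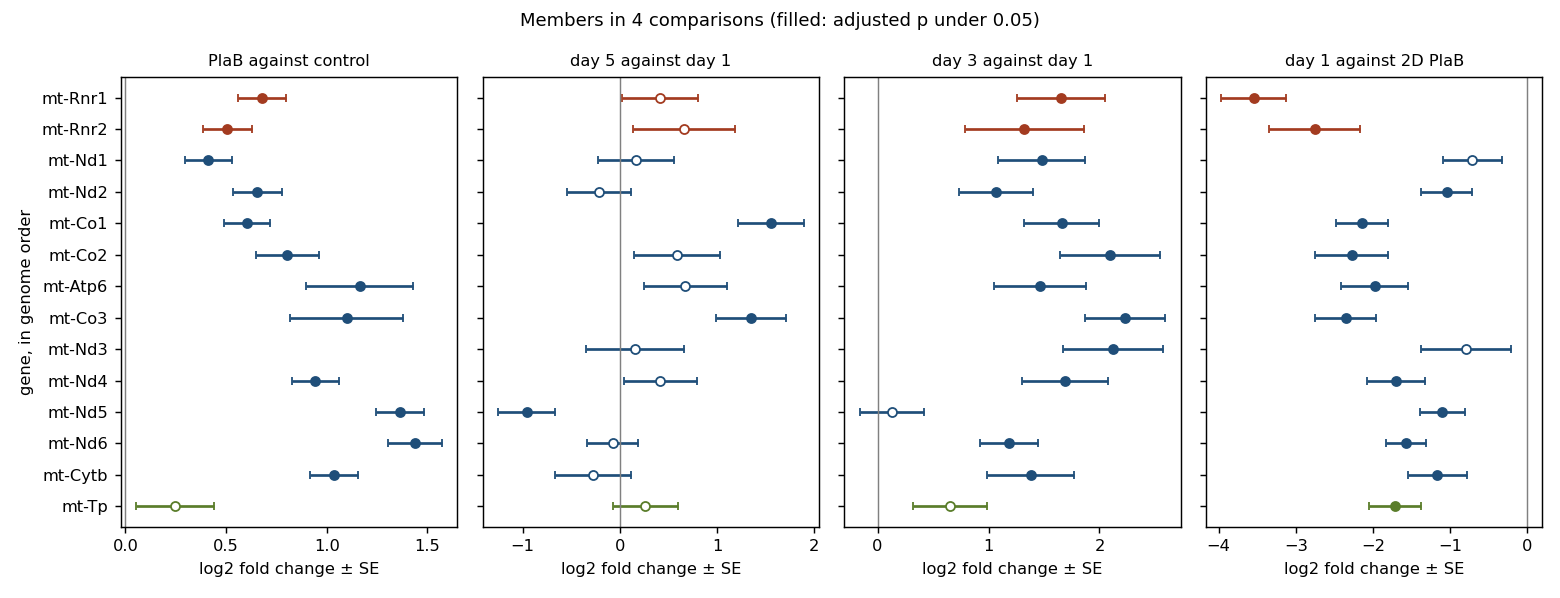
Log2 fold change ± SE of each tested mitochondrial gene in 4 comparisons, from edgeR, in genome order, with mRNAs in blue, rRNAs in red and the tRNA in green; filled points have an adjusted p under 0.05. With PlaB all mRNAs and rRNAs lie above 0, and on day 1 against 2D PlaB the rRNAs lie farthest below 0.

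Of the nuclear genes for transcription and maintenance of the mitochondrial genome, more fell than rose with PlaB. Of 16 tested, 1 rose and 9 fell, with a median log2 fold change of -1.02, where 25.9% of all genes were higher and 25.8% lower. Tefm, the elongation factor of mitochondrial transcription, changed by -3.19 ± 0.24 (SE) on the log2 scale and Mterf3, a factor of the mitochondrial terminator family, by -3.07 ± 0.25. Ssbp1, which binds single-stranded mitochondrial DNA, changed by -1.06 ± 0.13 and Mterf1b by -4.67 ± 0.61. Of 26 tested genes for processing and stability of mitochondrial RNA, 5 rose and 8 fell, a share near that of all genes (51.7%). Among them Fastkd5, needed for maturing some of the mRNAs, changed by -3.33 ± 0.50 and Grsf1, a protein of mitochondrial RNA granules, by -1.14 ± 0.17. Trit1, which modifies tRNAs, rose by 1.81 ± 0.26 and Hsd17b10, a subunit of mitochondrial RNase P, by 1.10 ± 0.17.

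Nuclear genes were also counted for the regulators of mitochondrial biogenesis and for the respiratory chain. Of 6 tested regulators 1 rose and 4 fell. Yy1 changed by -1.25 ± 0.16 (SE) on the log2 scale, Nrf1, a transcription factor for respiratory genes, by -1.26 ± 0.33, Gabpa by -0.73 ± 0.15 and Myc by 1.31 ± 0.26. The call of Gabpa was lost with the GC trend removed (adjusted p = 0.143) and that of Nrf1 without PlaB replicate 2 (0.0639). Of 73 tested respiratory chain genes, 35 rose and 8 fell, with a median of 0.24. With the GC trend removed these counts were 25 and 18, and 19 of the 35 were still called higher. The smallest adjusted p-values belonged to Uqcrc1 (2.65 ± 0.17) and Cyc1 (2.05 ± 0.17) of complex III and to Ndufs7 (3.13 ± 0.23) and Ndufs8 (2.09 ± 0.19) of complex I.

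The blastoid libraries asked whether mitochondrial transcripts differed over 5 days of culture. Tested for any difference between days over 15121 genes, all 11 mitochondrial mRNAs that could be tested passed, where 68% of all genes did. The smallest adjusted p was that of mt-Co3 (3.68e-04) and the largest that of mt-Atp6 (0.0404), which did not pass with total counts, the GC trend removed or the replicate block (adjusted p = 0.0757, 0.148 and 0.0542). Its call was also lost without any one of 7 libraries (day 1 replicates 1 and 2, day 2 replicate 2, day 3 replicate 3, day 4 replicates 1 and 2, day 5 replicate 2), at adjusted p = 0.0522 to 0.123. With the GC trend removed mt-Nd1 did not pass either (adjusted p = 0.0718). For mt-Nd5 the call was lost without day 5 replicate 2 (adjusted p = 0.0537) or replicate 3 (0.0826). Of the rRNAs, mt-Rnr1 passed (adjusted p = 0.00382), but not with the GC trend removed (0.0766) or without day 3 replicate 3 (0.124). The rRNA mt-Rnr2 (adjusted p = 0.183) and the tRNA mt-Tp (0.259) did not pass, although mt-Rnr2 did without day 1 replicate 3 (0.0450) or day 4 replicate 2 (0.0112).

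Between day 1 and day 3 most mitochondrial mRNAs rose. Of 11 tested, 10 were higher and none lower, where 47.3% of all genes passed, 23.4% higher and 23.8% lower. For 8 of these mRNAs the days did not overlap, a count not made over all genes. The median log2 fold change was 1.48 over the mRNAs and 0.0305 over all genes. In complex IV, mt-Co1 was at 4932, 6028 and 9552 CPM on day 1 and 18320, 12856 and 33622 on day 3 (log2 fold change 1.66 ± 0.34 (SE), adjusted p = 5.60e-04). All 3 libraries of day 3 lay above those of day 1, with replicate 3 far above the other two. Log2 fold changes were 2.23 ± 0.36 (SE) for mt-Co3 and 2.10 ± 0.45 for mt-Co2. In complex III, mt-Cytb was at 4916, 5212 and 10420 CPM against 13584, 9164 and 30701 (log2 fold change 1.38 ± 0.40 (SE), adjusted p = 0.00739), and here day 3 replicate 2 lay below day 1 replicate 3.

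The complex I mRNAs were not uniform. Levels of mt-Nd6 were 157, 167 and 161 CPM on day 1 and 361, 312 and 429 on day 3 (log2 fold change 1.19 ± 0.26 (SE), adjusted p = 0.00110), with a small spread on day 1 and no overlap. By contrast mt-Nd5, at 2084, 2228 and 3552 against 3050, 2102 and 3454 CPM, was the sole tested mRNA that did not pass (log2 fold change 0.13 ± 0.29 (SE), adjusted p = 0.736). The days overlapped for it in full. Log2 fold changes were 1.69 ± 0.39 (SE) for mt-Nd4, 1.48 ± 0.39 for mt-Nd1 and 1.07 ± 0.33 for mt-Nd2, and 2.12 ± 0.45 for mt-Nd3, which stood at 0.871 to 1.79 CPM on day 1 and 3.89 to 9.04 on day 3. The ATP synthase mRNA mt-Atp6 changed by 1.47 ± 0.42 (adjusted p = 0.00689). The chromosome 1 copies Gm28661 (of mt-Co2), Gm28437 (of mt-Co3) and Gm28438 (of mt-Nd3) rose too, by 2.17 ± 0.43, 1.89 ± 0.40 and 1.88 ± 0.42 on the log2 scale. So did Gm29216 (of mt-Co1), by 2.81 ± 0.46. The copies Gm10925 (of mt-Atp6, 1.595 ± 0.73, adjusted p = 0.0868), Gm28439 (of mt-Nd4, 1.51 ± 0.67, 0.0682) and Gm10222 (of mt-Nd4l, 0.14 ± 0.74, 0.889) did not pass.

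The rRNAs were higher on day 3 as well. Levels of mt-Rnr1 were 305, 336 and 688 CPM on day 1 and 1167, 1218 and 1796 on day 3 (log2 fold change 1.65 ± 0.40 (SE), adjusted p = 0.00217). For mt-Rnr2 they were 2216, 1763 and 5493 and 5538, 6175 and 12005 (log2 fold change 1.32 ± 0.53 (SE), adjusted p = 0.0488), with the lowest day 3 library just above the highest of day 1. This last call was lost in 7 of 8 other settings (adjusted p = 0.0534 to 0.756), DESeq2 among them, and without any one of 12 of the 15 libraries (0.0509 to 0.348, the highest without day 3 replicate 3), and it held without day 1 replicate 3 or day 4 replicates 2 or 3. With the GC trend removed neither rRNA passed (adjusted p = 0.169 for mt-Rnr1 and 0.756 for mt-Rnr2). The tRNA mt-Tp did not pass (log2 fold change 0.65 ± 0.33 (SE), adjusted p = 0.110), except without day 3 replicate 2 (adjusted p = 0.0461).

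The day 3 calls changed when replicate 3 was left out and when the GC trend was removed. Without day 3 replicate 3, 7 mRNAs were higher, and mt-Nd2 (adjusted p = 0.0613), mt-Atp6 (0.0861) and mt-Cytb (0.0616) no longer passed. The call of mt-Nd2 was also lost without day 1 replicate 1 (0.0784) or replicate 2 (0.0675), and that of mt-Cytb without day 1 replicate 1 (0.0515) or with only the libraries of both days in the fit (0.0548). GC-rich minus GC-poor nuclear genes stood at 1.23, 1.32 and 0.58 (log2 scale) for day 1 libraries and at -0.49, -0.62 and -1.33 for those of day 3, and on both days replicate 3, with the most mitochondrial mRNA of its day, had the lowest value. With the GC trend removed only mt-Co1, mt-Co2 and mt-Co3 were higher, at log2 fold changes of 0.86, 1.13 and 1.35. In that fit mt-Nd5 was lower by the test (-0.82, adjusted p = 0.0137), and mt-Nd2 and mt-Nd6 stood at -0.05 and -0.04. With total counts in place of TMM, genes of the whole table split into 2419 higher and 4555 lower, against 3545 and 3600.

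By day 5, 2 of the complex IV mRNAs were higher than on day 1 and a complex I mRNA was lower. Of 11 tested mRNAs 2 were higher, 1 was lower and 8 did not pass, where 51% of all genes passed, 25.5% in each direction. Levels of mt-Co1 were 19465, 16961 and 23851 CPM on day 5 against the 4932, 6028 and 9552 of day 1 (log2 fold change 1.55 ± 0.34 (SE), adjusted p = 7.72e-04), a rise in the mean of 2.94 times without overlap. Levels of mt-Co3 were 28.4, 26.3 and 57.5 CPM on day 1 and 131, 68.3 and 87.4 on day 5 (log2 fold change 1.35 ± 0.36 (SE), adjusted p = 0.00371). The fold change of mt-Co3 may rest on only a part of its reads, given its copy Gm28437, which did not pass (0.95 ± 0.40 (SE), adjusted p = 0.052). Of the chromosome 1 copies only Gm29216 (of mt-Co1) passed, and it was higher (log2 fold change 2.49 ± 0.46 (SE), adjusted p = 1.77e-04). In the opposite direction mt-Nd5 was at 1695, 1352 and 997 CPM on day 5 (log2 fold change -0.96 ± 0.30 (SE), adjusted p = 0.0103), with every day 5 library below every day 1 library. Its call was lost without day 1 replicate 3 (adjusted p = 0.0521) or without day 5 replicate 3 (0.0540). The median log2 fold change was 0.17 over the mRNAs and -0.0153 over all genes.

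Markers of other cell types moved with this comparison. Trophectoderm markers (8 genes, for the outer layer of the early embryo) summed to 306 to 487 CPM on day 1 and 888 to 1807 CPM on day 5, with 0 to 1 of them at 0 in a day 5 library, and 5 of 6 tested were higher and none lower. Feeder markers summed to 599 to 1038 CPM on day 1 and 231 to 273 CPM on day 5. Of 17 tested, 13 were lower and none higher, or 11 lower and 1 higher with the GC trend removed. Primitive endoderm markers (8 genes) summed to 29.8 to 126 and 21.2 to 23.7 CPM, with 3 of 5 tested lower and none higher. Of 8 stem cell markers 1 was higher and 4 were lower, or 2 and 4 with the GC trend removed. On day 3 trophectoderm markers summed to 45.6 to 79.6 CPM. Of 6 tested, 1 was higher and 3 were lower than on day 1, or 2 and 2 with the GC trend removed. Of 17 feeder markers 1 was higher and 2 were lower, or 5 and 3 with the GC trend removed. Stem cell markers summed to 5747 to 6823 CPM on day 1 and 8134 to 17925 CPM on day 3. Of 8 tested, 4 were higher and 2 were lower, with or without the GC trend. The part of these cell types in the mitochondrial results was not tested.

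The other mRNAs gave day 5 values on both sides of day 1. Log2 fold changes were -0.27 ± 0.39 (SE) for mt-Cytb, 0.17 ± 0.39 for mt-Nd1, -0.22 ± 0.33 for mt-Nd2 and 0.42 ± 0.38 for mt-Nd4, none past the threshold. They were -0.07 ± 0.26 for mt-Nd6, 0.15 ± 0.50 for mt-Nd3, 0.59 ± 0.44 for mt-Co2 and 0.67 ± 0.42 for mt-Atp6. The rRNAs mt-Rnr1 (0.42 ± 0.39) and mt-Rnr2 (0.66 ± 0.53) and the tRNA mt-Tp (0.26 ± 0.33) did not pass either. With the GC trend removed 4 mRNAs were lower, at -1.55 for mt-Nd5, -0.86 for mt-Nd2, -0.79 for mt-Nd6 and -0.79 for mt-Cytb, while mt-Co1 (1.09) and mt-Co3 (0.84) were still higher. The days 3 and 5 comparisons share the libraries of day 1. With total counts in place of TMM, genes of the whole table split into 2621 higher and 5150 lower on day 5, against 3863 and 3854.

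**Figure D4:**
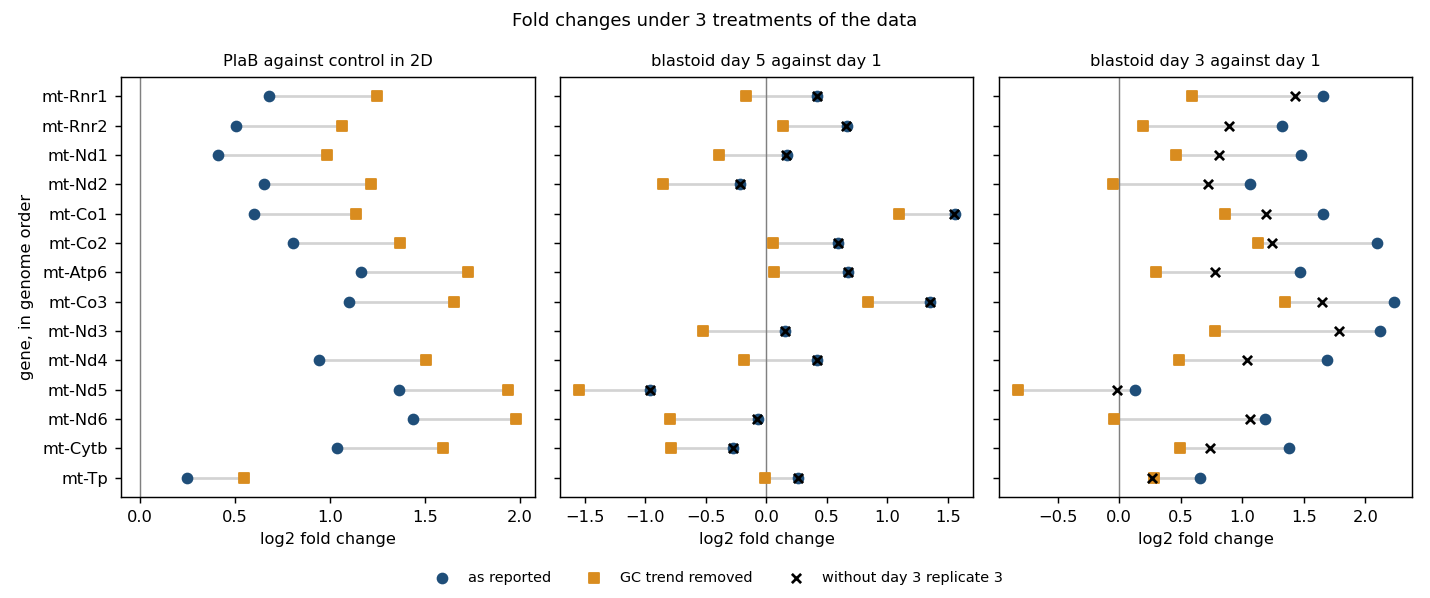
Log2 fold change of each tested mitochondrial gene as reported (circles), with the GC trend removed (squares) and, for blastoids, without day 3 replicate 3 (crosses). Squares lie to the right of circles for PlaB against control and to the left of them in both blastoid comparisons.

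The make-up of the mitochondrial mRNA pool shifted across the groups, given here as each gene's percent of the 13 mRNAs and with no test. The share of mt-Co1 was 45.1 and 44.9% in control libraries and 40.3 and 41.6% with PlaB. In the order of the replicates it was 25.2, 27.1 and 24.1% (day 1), 23.2, 28.3 and 26.1% (day 2) and 32.1, 31.3 and 28.4% (day 3), and then 43.2, 39.8 and 41.0% (day 4) and 43.6, 49.0 and 61.8% (day 5). All libraries of days 4 and 5 lay above all those of days 1 to 3. The share of mt-Cytb ran the other way in blastoids, at 25.1, 23.4 and 26.3% (day 1), 27.2, 28.2 and 27.8% (day 2) and 16.5, 14.3 and 12.2% (day 5), with 16.2 and 17.8% in control libraries. The share of mt-Nd5 was 5.02 and 4.91% in control libraries, 8.16 and 7.18% with PlaB, 10.7, 10.02 and 8.97% (day 1) and 3.79, 3.91 and 2.58% (day 5). It was highest on day 1, where no library overlapped any other group.

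Ratios between members of the same library need no scaling between libraries. For each count of mt-Co1 there were 0.360 and 0.396 counts of mt-Cytb in control libraries and 0.528 and 0.495 with PlaB. Blastoids had 0.997, 0.865 and 1.09 (day 1), 0.741, 0.713 and 0.913 (day 3) and 0.379, 0.291 and 0.197 (day 5). These groups were apart except for day 1 and day 3, and control and day 5, which overlapped. Day 3 replicate 3, which held the most mitochondrial mRNA, had a ratio within the range of day 1. For mt-Nd5 against mt-Co1 the ratio was 0.111 and 0.109 in control libraries, 0.203 and 0.173 with PlaB, 0.422, 0.369 and 0.372 (day 1) and 0.0871, 0.0797 and 0.0418 (day 5). The ratio moved by unequal change of the genes, and does not show which of them changed.

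**Figure D5:**
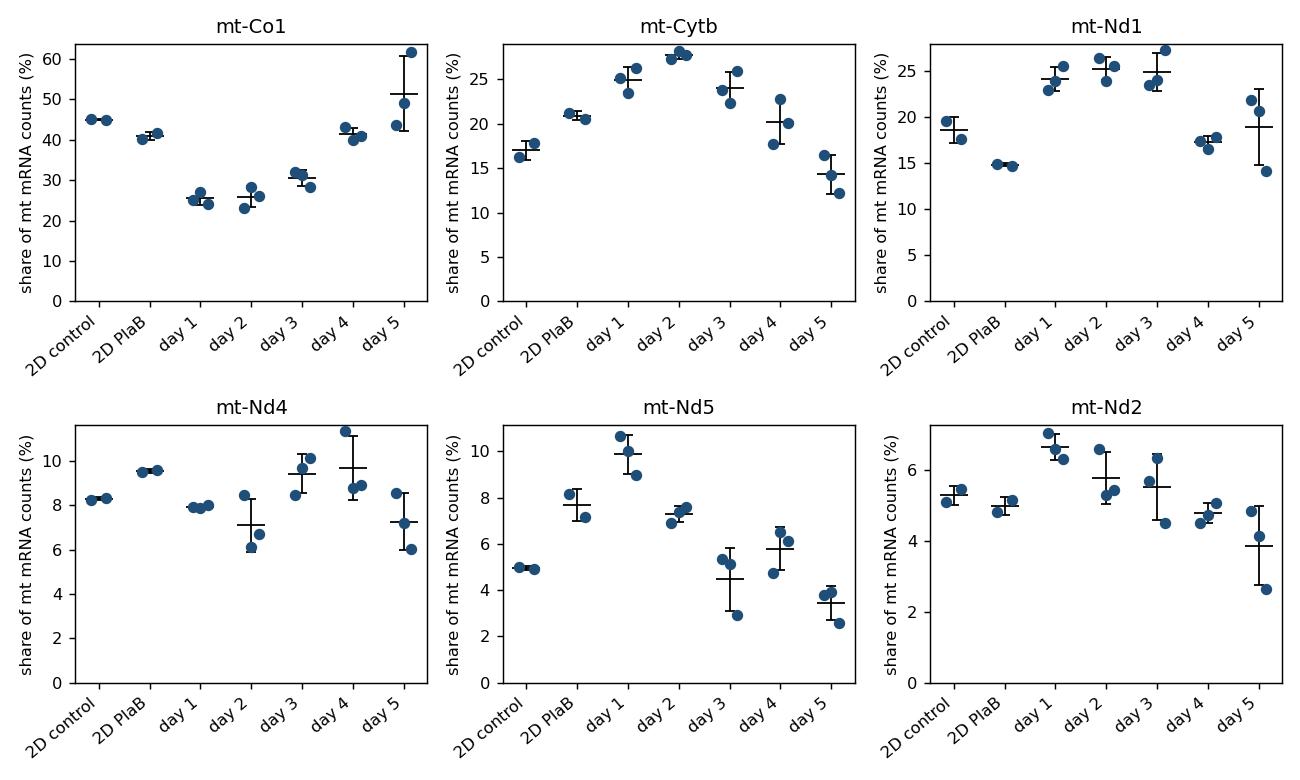
Percent of mitochondrial mRNA counts taken by 6 of the mRNAs, with each library as a point and the mean ± SD of each group as a bar. The share of mt-Co1 is lowest on days 1 and 2 and reaches 43.6% to 61.8% on day 5, while that of mt-Nd5 is highest on day 1.

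Day 1 blastoids were also compared with PlaB-treated cells in 2D culture, in a fit of all 19 libraries. Mitochondrial RNA was lower in the blastoids, and the log2 fold changes of both rRNAs lay below that of every mRNA, a difference between classes that was not tested. Of 11 tested mRNAs 9 were lower and none higher, where 38.9% of 16304 genes passed, 21.9% higher and 17% lower. The median log2 fold change was -1.57 over the mRNAs, -3.15 over the rRNAs and 0.138 over all genes. Levels of mt-Rnr1 were 5624 and 4777 CPM with PlaB in 2D culture and 309, 335 and 690.0 on day 1 (log2 fold change -3.55 ± 0.42 (SE), adjusted p = 7.94e-07), which is 11.7 times lower. For mt-Rnr2 they were 23562 and 19315 against 2250, 1759 and 5509 (log2 fold change -2.76 ± 0.59 (SE), adjusted p = 0.00124). The groups were apart for both, and for all 11 mRNAs, a count not made over all genes.

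Among the mRNAs the complex IV subunits had the lowest fold changes. Those of mt-Co2 and mt-Co3 may rest on only a part of their reads, given their copies. Levels of mt-Co1 were 28083 and 32420 CPM in 2D culture and 5007, 6012 and 9580 on day 1 (log2 fold change -2.14 ± 0.33 (SE), adjusted p = 2.07e-05). Log2 fold changes were -2.35 ± 0.39 (SE) for mt-Co3, -2.27 ± 0.47 for mt-Co2, -1.98 ± 0.44 for mt-Atp6 and -1.71 ± 0.38 for mt-Nd4. They were -1.57 ± 0.26 for mt-Nd6, -1.17 ± 0.39 for mt-Cytb, -1.10 ± 0.29 for mt-Nd5 and -1.04 ± 0.33 for mt-Nd2. The calls of mt-Cytb and mt-Nd2 were lost with total counts in place of TMM (adjusted p = 0.0701 and 0.0621) and without day 1 replicate 1, day 1 replicate 2 or PlaB replicate 2 (0.0603 to 0.142), and that of mt-Cytb also without PlaB replicate 1 (0.0741). With total counts genes of the whole table split into 4815 higher and 1953 lower, against 3569 and 2769, and their median log2 fold change was 0.431. Neither mt-Nd1 (log2 fold change -0.71 ± 0.38 (SE), adjusted p = 0.142) nor mt-Nd3 (log2 fold change -0.79 ± 0.59 (SE), adjusted p = 0.299) passed, though mt-Nd1 did without day 1 replicate 3 (adjusted p = 0.0266) or day 3 replicate 3 (0.0343) and with only the libraries of both groups in the fit (0.0329). The tRNA mt-Tp fell from 65.5 and 55.9 CPM to 11.6, 19.9 and 24.1 (log2 fold change -1.72 ± 0.34 (SE), adjusted p = 2.96e-04). Feeder markers moved with this comparison, with 16 of 17 lower and none higher, and their part in the result was not tested.

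The same lists of nuclear genes were counted on day 1 against 2D PlaB, a comparison that shares its 2 PlaB libraries with that of PlaB against control. Of 18 tested genes for mitochondrial transcription and genome maintenance 12 were higher and none lower, where 21.9% of all genes were higher and 17% lower, led by Mterf3 (2.85 ± 0.28 SE, log2 fold change), Tefm (2.82 ± 0.34), Mterf4 (2.52 ± 0.35) and Mterf1a (2.43 ± 0.43). Of 29 RNA processing genes 16 were higher and 3 lower. The smallest adjusted p-values were those of Fastkd3 (2.90 ± 0.34), Grsf1 (1.64 ± 0.24), Fastkd5 (2.66 ± 0.42) and Trmt10c (-1.13 ± 0.19), a subunit of mitochondrial RNase P. Of 8 biogenesis regulators 2 were higher, Nrf1 (2.44 ± 0.30) and Pprc1 (1.38 ± 0.30), and none lower, with Ppargc1b (1.65 ± 1.12) and Esrra (1.16 ± 1.29) not past the threshold. Of 74 nuclear-encoded respiratory chain genes 3 were higher and 27 lower, among them Ndufb3 (-1.31 ± 0.24), Ndufc2 (-1.17 ± 0.24) and Ndufc1 (-1.37 ± 0.28) of complex I, while the ATP synthase subunit Atp5d was higher (1.36 ± 0.28), though not with the GC trend removed (adjusted p = 0.0664). In that fit 0 respiratory chain genes were higher and 38 lower.

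Within blastoids the shares of these nuclear lists past the threshold lay near that of all genes (68%). Tested for any difference between days, 12 of 18 transcription and maintenance genes passed, with the smallest adjusted p-values for Tefm (2.00e-06), Mterf1a (4.19e-06), Mterf1b (4.50e-06) and Ssbp1 (3.59e-05). So did 21 of 29 RNA processing genes, led by Mrm3 (3.04e-06), Mrm2 (3.70e-06), Rexo2 (6.50e-06) and Fastkd5 (1.11e-05). Of the biogenesis regulators 5 of 7 passed, led by Yy1 (2.44e-06), Ppargc1b (1.48e-05), Myc (1.93e-04) and Gabpa (0.00142). Of the respiratory chain genes 45 of 74 passed, led by Atp5d (6.71e-10), Ndufs7 (5.77e-06), Cox6c (6.70e-06) and Uqcrc1 (6.90e-06).

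Contrasts between single days gave directions for these lists, where on day 5 against day 1 51% of all genes passed, 25.5% in each direction. In that contrast 1 of 18 transcription and maintenance genes was higher and 9 were lower (2 and 7 with the GC trend removed), among them Tefm (-1.89 ± 0.27 SE, log2 fold change), Mterf1a (-2.24 ± 0.33), Mgme1, a nuclease of mitochondrial DNA (-1.85 ± 0.28), and Mterf1b (-2.60 ± 0.43). Of 29 RNA processing genes 4 were higher and 12 lower (0 and 13 with the GC trend removed), with Rexo2 (-1.80 ± 0.20), an exonuclease for short RNAs, and the rRNA methyltransferases Mrm3 (-2.98 ± 0.34) and Mrm2 (-3.12 ± 0.39) in front, followed by Elac2 (-1.85 ± 0.33), which cuts tRNA ends. Of 7 biogenesis regulators 2 were higher, Yy1 (2.38 ± 0.28) and Ppargc1b (3.44 ± 0.48), and Nrf1 was lower (-0.79 ± 0.21), while Myc did not pass (-0.78 ± 0.33, adjusted p = 0.0531), although it was lower by DESeq2 (adjusted p = 0.0413) and with the replicate block (0.0228). Of 74 respiratory chain genes 28 were higher and 12 lower (36 and 9 with the GC trend removed), with Cox6c of complex IV (2.16 ± 0.28), Uqcrb of complex III (2.12 ± 0.28) and Ndufa5 of complex I (1.76 ± 0.26) higher and Atp5d (-2.96 ± 0.23) lower.

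On day 3 against day 1, where 23.4% of all genes were higher and 23.8% lower, the counts were 5 higher and 3 lower of 18 for transcription and maintenance (2 and 0 with the GC trend removed). In the fit as reported Ssbp1 (1.28 ± 0.22 SE, log2 fold change) and Polg2, a subunit of the mitochondrial DNA polymerase (1.30 ± 0.30), were higher. The mitochondrial RNA polymerase Polrmt (-1.67 ± 0.39) and Atad3a (-1.56 ± 0.33) were lower, calls that were lost with the GC trend removed (adjusted p = 0.792 and 0.134). Of 29 RNA processing genes 6 were higher, led by Fastkd5 (1.56 ± 0.23) and Grsf1 (1.38 ± 0.21), and 9 lower (5 and 4 with the GC trend removed), led by Mrm2 (-2.0 ± 0.34) and Pus1 (-1.38 ± 0.25), the latter not past the threshold with the GC trend removed (adjusted p = 0.736). Of 7 biogenesis regulators Yy1 (1.36 ± 0.27) and Gabpa (0.92 ± 0.20) were higher and Myc (-1.37 ± 0.34) and Nrf1 (-0.60 ± 0.21) lower. The calls of Gabpa and Myc were lost with the GC trend removed (adjusted p = 0.198 and 0.0903), and that of Nrf1 without day 1 replicate 1 (0.0545) or day 3 replicate 1 (0.0753) and with only the libraries of both days (0.0523). Of 74 respiratory chain genes 26 were higher and 20 lower, or 31 and 11 with the GC trend removed. Cox6c (2.20 ± 0.28) was higher, and Atp5d (-3.98 ± 0.24), Ndufs7 (-3.54 ± 0.44) and Uqcrc1 (-2.90 ± 0.38) were lower.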

How the data were processed

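Per the file headers and columns, the authors deposited raw read counts by gene symbol, in a table of 2D libraries and a table of blastoids. Per the submitters' processing notes, STAR 2.7.10b, HTSeq 0.13.5 and the genome build mm10 were used. Not given in the sources used here are the annotation release, the strand setting and the treatment of reads with several matches. Columns matched the sample titles, whereas the table named in the labels was swapped between the 2 tables. Genes with at least 10 counts in enough libraries and 15 in all (edgeR's filterByExpr) were tested with edgeR 4.0.16 (TMM, robust quasi-likelihood F-test, Benjamini-Hochberg, threshold 0.05) in R 4.3.3: 4 libraries for PlaB against control, 15 for blastoid days and 19 for day 1 against 2D PlaB. The standard error is the fold change divided by the square root of F. Alternatives were RLE factors, total counts, scaling to nuclear counts, no filter, DESeq2 1.42.0, an offset that removed each library's GC trend, a replicate block, only both groups, and leaving out each library. The scripts were tested on simulated data.

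Sequences, positions and GC content came from GENCODE M21, and nuclear copies were found with BLAST 2.17.0 (at least 90% identity over 50 bases) and exact 50-base windows. Window counts use annotated transcripts alone. All mRNAs and rRNAs, each tRNA that passed a filter and, for each list and comparison, the 4 genes with the smallest adjusted p are named (for lists of mitochondrial function; marker lists are given by counts and sums). Members and lists were chosen with earlier results of these data known. The labels name no separate cultures for the replicates. The p-values then set each group difference against the spread of these libraries alone, which may be technical.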

Additional observations from a re-analysis of the deposited data

How the results depend on the processing

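The counts of mitochondrial mRNAs past the threshold depended on GC content and on single libraries more than on scaling. Across RLE factors, total counts, scaling to nuclear counts, no filter, DESeq2 and the replicate block, every count stayed within 1.5 times its value. With the GC trend removed, 4 mRNAs were lower on day 5 against day 1 in place of 1. On day 3 against day 1, 3 were higher in place of 10 and 1 was lower in place of 0, and mt-Nd2 (-0.0482), mt-Nd5 (-0.825) and mt-Nd6 (-0.0408) changed the sign of their log2 fold change; the cause was not tested. Leaving out each library in turn gave 9 to 10 mRNAs higher and 0 lower for PlaB against control, and 9 to 11 with any difference between days. It gave 2 higher and 0 to 1 lower for day 5, 7 to 10 higher and 0 lower for day 3, and 0 higher and 7 to 10 lower for day 1 against 2D PlaB. In 2D a lone library was assumed to vary like the other group. The log2 ratio of the mRNA share was 0.692 for PlaB against control (0.613 to 0.767 with libraries left out), 0.213 for day 5 against day 1 (0.0481 to 0.533) and 1.20 for day 3 against day 1 (0.550 to 1.52). Same-numbered libraries did not deviate together (correlation -0.0179 in 2D, over 0.1 in 4 of 30 blastoid pairs), so the numbers gave no pairing. With the replicate block 10 mRNAs were higher for PlaB against control, 10 differed between days, 2 were higher and 1 lower on day 5, 10 were higher on day 3 and 9 were lower on day 1 against 2D PlaB. Members whose call changed in a setting are given with it in the results. Low counts (5 for mt-Nd4l, 60 for mt-Atp8, 284 for mt-Nd3 and 2643 for the 22 tRNAs in all) limit the precision of these values.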
